A study of Homo sapiens with 6 samples.

Results

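The genes described here are the protein-coding members of growth factor, WNT, ephrin and Notch families in a deposited table of RNA-seq values from RKO cells. They were chosen by name: symbols that begin with FGF, TGFB, IGF, PDGF, VEGF, EFNA or EFNB, numbered WNT, FZD, BMP, EPHA, EPHB, NOTCH, DLL and JAG symbols, and APCDD1. The rule itself uses no measured value, but it was set with earlier results of these data known. It found 32 of the 2885 genes of the table, of which 2036 are protein-coding. RKO is an established human colon carcinoma line. The 6 libraries formed 2 groups of 3: cells carrying a short hairpin RNA against the histone H4 lysine methyltransferase gene KMT5A (labelled shKMT5A, with the genotype given as KMT5A knockdown), and cells with the control hairpin (labelled shNC, with a wild-type genotype). The comparison of the groups addresses which transcripts differ with the hairpin. How many hairpins or clones were used, and whether each library had its own culture, is not stated in the labels. The p-values therefore rest on the spread between these 6 libraries alone, and that spread may be technical.

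These families carry signals between neighbouring cells. WNT ligands bind Frizzled receptors and act through beta-catenin or through other routes, and in the gut epithelium WNT signalling maintains the stem cells of the crypt. Secreted FGF, PDGF and IGF proteins activate receptor tyrosine kinases, while BMP and TGF-beta ligands activate receptor serine/threonine kinases that phosphorylate SMAD proteins. Ephrins and Eph receptors are both held at the cell surface and sort cells along the crypt axis, and Notch ligands act on Notch receptors of the adjacent cell.

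The transcript of the targeted gene, KMT5A, goes against the labels, since it was the more abundant in the libraries labelled shKMT5A. It had 4015, 3898 and 3297 normalized counts in the libraries labelled shKMT5A, against 1298, 1245 and 1307 in the shNC libraries. Its log2 fold change was 1.54 (SE 0.075; limma, adjusted p = 1.00e-08), and a two-sided exact permutation test on its values gave p = 0.1, the lowest p this design can reach. Higher and lower below always describe the libraries labelled shKMT5A relative to shNC, and the files do not tie either word to a loss of KMT5A transcript.

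The table holds only genes that the authors had selected as different, where the smallest absolute log2 fold change in the authors' deposited table is 1.0 and the highest adjusted p 0.0499. Nearly every gene therefore passed: 99.9% of the table was called at an adjusted p under 0.05 (limma), 57.4% as higher and 42.6% as lower. Groups did not overlap for 99.7% of its genes. Among its protein-coding genes 55.6% were higher and 44.3% lower. The values are read counts that the authors had scaled by 1 factor per library. Reads over the table ranged from 1891460 to 1980866 in the libraries labelled shKMT5A and from 1363382 to 1369655 in the shNC libraries, and how many reads each library had in all is unknown. No read was seen for 180 genes in all libraries labelled shKMT5A and for 126 genes in all shNC libraries.

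Of the 32 genes, 12 were higher and 20 lower in the libraries labelled shKMT5A, or 37.5% and 62.5%. All 32 were called and none overlapped between the groups, which follows from the authors' selection. Their median log2 fold change was -1.17, against 1.13 for the whole table. Since the table holds no genes with small changes, such medians, here and for the lists below, mostly restate which direction had more genes. By family, 4 of 8 WNT pathway members were higher, 2 of 6 FGF genes, 1 of 4 BMP and TGF-beta genes, 3 of 7 ephrin genes and 1 of 5 IGF genes, the rest of each being lower. PDGFA was lower and DLL3 higher. GENCODE 29 annotates 150 protein-coding genes with such names. The 118 others, among them every NOTCH, JAG and VEGF gene, were not analysed here, so nothing can be said of their levels. In bulk RNA, fewer cells with a transcript and less of it per cell cannot be told apart, for these genes and all others below.

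**Figure D1:**
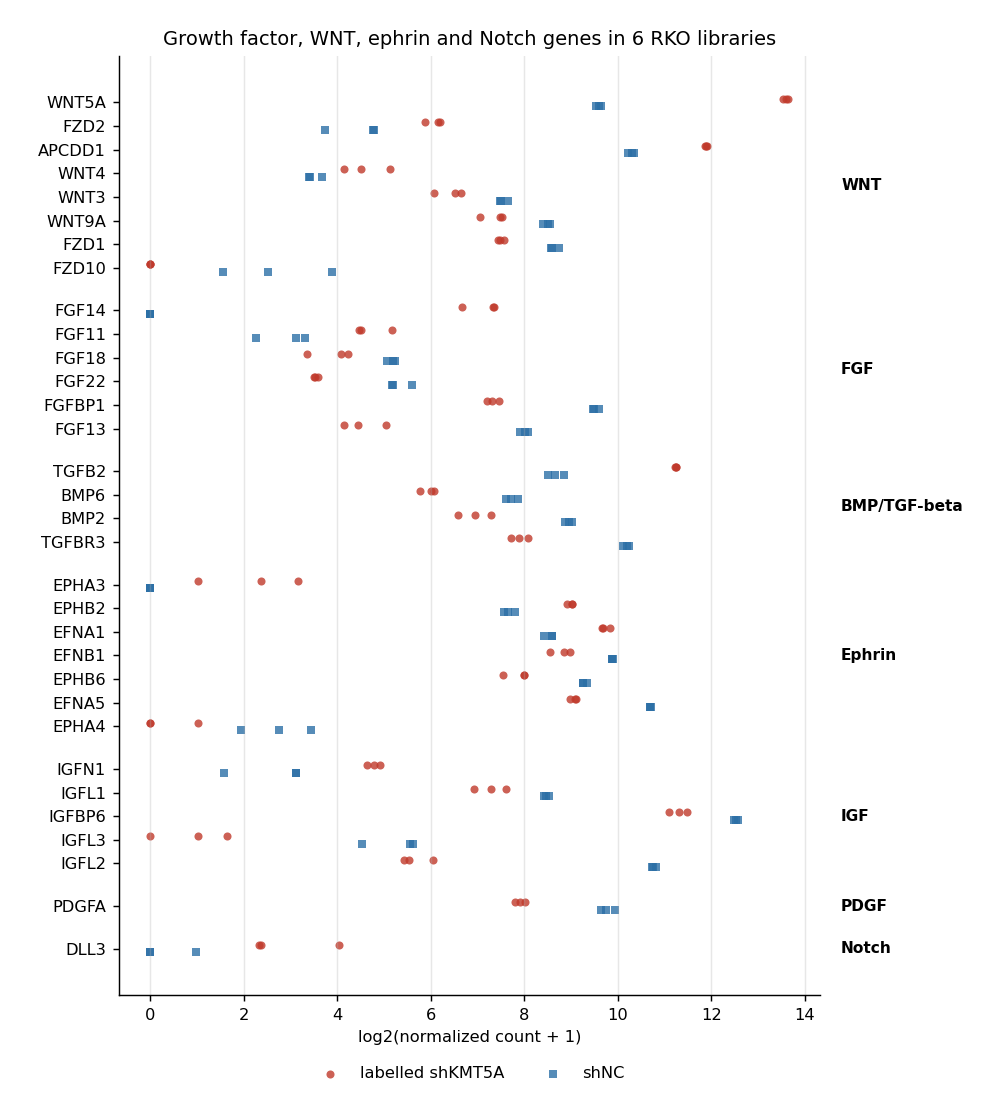
Normalized counts of the 32 genes on the log2(value + 1) scale, 1 point per library (circles, libraries labelled shKMT5A; squares, shNC), grouped by family. The 3 libraries of a group lie close together for abundant genes such as WNT5A and EFNA5 and spread apart for EPHA3, EPHA4, FZD10 and DLL3, which rest on few reads.

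Among WNT ligands, WNT5A stood far above the others in the libraries labelled shKMT5A. WNT5A, a ligand known mainly for signalling without beta-catenin through ROR receptors (ENSG00000114251), had 12368, 12839 and 11896 normalized counts in the libraries labelled shKMT5A, against 793, 745 and 780.4 in the shNC libraries. It lies at chromosome 3, 55465715 to 55490539, minus strand (GRCh38). The lowest of the libraries labelled shKMT5A was more than 10 times the highest shNC library. The log2 fold change was 4.0 (SE 0.052; limma, adjusted p = 1.05e-12), a 16-fold ratio of means. WNT4, a ligand of kidney and reproductive tract development, had 16.8, 33.8 and 21.9 normalized counts in the libraries labelled shKMT5A, against 9.52, 9.63 and 11.8 in the shNC libraries. It was the member nearest to the authors' threshold of significance, with an adjusted p of 0.0461 in the authors' deposited table. Its log2 fold change was 1.10 (SE 0.33; limma, adjusted p = 0.00699), and with trimmed-mean (TMM) scaling within the table the WNT4 log2 fold change was 0.54 and not called (limma, adjusted p = 0.121).

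The other 2 ligands were lower. WNT9A had 131, 182 and 178 normalized counts in the libraries labelled shKMT5A, against 337, 363 and 374 in the shNC libraries. WNT3, which signals through beta-catenin and supports crypt stem cells in mice, had 99.5, 90.1 and 66.6 normalized counts in the libraries labelled shKMT5A, against 201, 179 and 179 in the shNC libraries. Their log2 fold changes were alike, -1.14 (SE 0.13; limma, adjusted p = 9.80e-06) for WNT9A and -1.13 (SE 0.16; limma, adjusted p = 4.38e-05) for WNT3. Per kilobase of gene length, WNT5A made up 95.9% to 96.6% of the summed level of WNT5A, WNT9A, WNT3 and WNT4 in the libraries labelled shKMT5A and 42.8% to 44.6% in the shNC libraries. This share covers the WNT genes of the table, not all WNT genes. It and the ratios between members below were chosen after their values had been seen.

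Of the Frizzled receptors, FZD2 was higher and FZD1 and FZD10 were lower. FZD2 had 70.1, 57.3 and 72.5 normalized counts in the libraries labelled shKMT5A, against 12.4, 26 and 26.5 in the shNC libraries, with a log2 fold change of 1.65 (SE 0.29; limma, adjusted p = 2.67e-04). FZD1 had 172, 188 and 178 normalized counts in the libraries labelled shKMT5A, against 378, 387 and 429 in the shNC libraries, with a log2 fold change of -1.14 (SE 0.094; limma, adjusted p = 5.72e-07). The order of the 2 receptors differed between the groups: per kilobase, FZD2 was 1.0 to 1.35 times FZD1 in the libraries labelled shKMT5A and 0.108 to 0.221 times FZD1 in the shNC libraries. FZD10 was scarce, with no read in any library labelled shKMT5A, against 4.76, 1.93 and 13.8 normalized counts in the shNC libraries. It was at least 6.68-fold lower, taking 3 counts over the whole group as its floor. Its log2 fold change was -2.65 (SE 0.52; limma, adjusted p = 5.28e-04), and -2.04 without shNC replicate 3, which held most of its reads.

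APCDD1, a membrane glycoprotein that binds WNT ligands and restrains the pathway, was higher. It had 3859, 3771 and 3717 normalized counts in the libraries labelled shKMT5A, against 1199, 1267 and 1304 in the shNC libraries, a tight grouping in both sets of libraries. The log2 fold change was 1.59 (SE 0.054; limma, adjusted p = 6.62e-10), a 3.01-fold ratio of means. Of 60 further WNT pathway genes listed by hand (co-receptors, transducers, feedback inhibitors, planar polarity genes), 3 were present, with a median log2 fold change of -1.15. Each of the 3 was lower, as was 42.6% of the whole table. These and all other listed genes of the table passed the test (limma, adjusted p under 0.05), as did 99.9% of the table. For listed and neighbouring genes, values are mean normalized counts ± SD over 3 libraries. LGR4, a receptor for R-spondins, had 270.4 ± 18.3 in the libraries labelled shKMT5A and 1025 ± 43.7 in the shNC libraries. KREMEN2, a receptor for the WNT inhibitor DKK1, had 415 ± 35.5 in the libraries labelled shKMT5A and 917 ± 33 in the shNC libraries. The third was PRICKLE2, a planar polarity gene. AXIN2, LGR5, RNF43 and LEF1 were not analysed here.

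The promoter windows of WNT5A are shown because it had the highest level among the higher members and because RefSeq gives it 2 starts, which the gene-level values cannot separate. Each runs from 250 bases before to 50 bases after a start (RefSeq, GRCh38.p14, minus strand, written 5′ to 3′), start 1 at chr3:55487257-55487556 and start 2 at chr3:55481349-55481648. Capitals here and below mark matches, on either strand, to a set of short motifs. They were the TCF/LEF motif CTTTGA, the motif TTCCCA of RBPJ (the DNA-binding partner of Notch), the SMAD palindrome GTCTAGAC, the AP-1 motif TGANTCA, the hypoxia motif ACGTG and the TATA box TATAAA, with the interferon response and NF-kB motifs by their names. The shorter SMAD motif CAGAC was searched too but is not capitalized, since 45.3% of all windows hold it. Of the windows shown here and below, those of TGFB2, IGFL2 and IGFL3 hold it.
WNT5A start 1: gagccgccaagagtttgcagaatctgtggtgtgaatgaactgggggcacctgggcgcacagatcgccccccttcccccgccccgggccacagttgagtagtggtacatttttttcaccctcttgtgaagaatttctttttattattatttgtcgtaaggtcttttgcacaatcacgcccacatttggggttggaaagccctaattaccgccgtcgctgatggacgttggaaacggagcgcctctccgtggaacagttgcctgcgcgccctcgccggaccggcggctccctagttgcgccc
WNT5A start 2: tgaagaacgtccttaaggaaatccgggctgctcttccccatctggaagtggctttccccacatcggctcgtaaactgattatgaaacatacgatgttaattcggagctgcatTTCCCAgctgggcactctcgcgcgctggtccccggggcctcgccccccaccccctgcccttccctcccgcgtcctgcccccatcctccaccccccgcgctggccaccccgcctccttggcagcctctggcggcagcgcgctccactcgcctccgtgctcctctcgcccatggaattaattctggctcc
The window of start 1 held no match. That of start 2 held TTCCCA once, a motif found in 24.0% of the 35116 promoter windows of the RefSeq table. A match is a description of the letters and not evidence of binding.

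WNT5A did not stand alone in its neighbourhood. All 3 other genes that GENCODE 29 places within 100 kb of it were present, each of them higher in the libraries labelled shKMT5A. WNT5A-AS1, an antisense RNA on the plus strand, starts at 55487699, which is 2.84 kb inside the GENCODE 29 span of WNT5A. Both RefSeq starts shown above lie further inside that span, so WNT5A-AS1 starts upstream of them. WNT5A-AS1 had 795 ± 101 in the libraries labelled shKMT5A and 50.6 ± 7.34 in the shNC libraries. AC121764.1, a long non-coding RNA, had 1039.8 ± 89.9 in the libraries labelled shKMT5A and 34.5 ± 6.08 in the shNC libraries. Only the 3′ end of the synaptic scaffold gene ERC2 lies in the window, since ERC2 starts at -978 kb from the start of WNT5A. ERC2 had 416 ± 36.4 in the libraries labelled shKMT5A and 22.6 ± 2.73 in the shNC libraries. The log2 fold changes of these 3 genes were 3.95, 4.88 and 4.15, beside 4.0 for WNT5A (limma, adjusted p at most 8.07e-10). WNT5A-AS1 overlaps the span of WNT5A but none of its exons. The window of 100 kb was chosen after values had been seen.

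**Figure D2:**
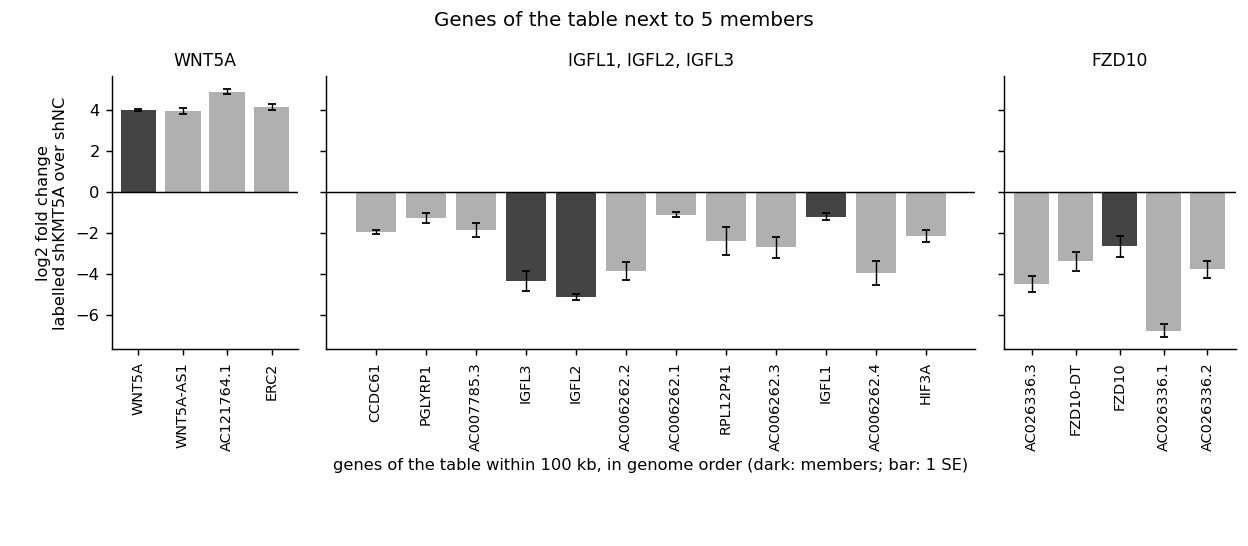
Log2 fold changes (libraries labelled shKMT5A over shNC, bars with 1 SE) of WNT5A, the 3 IGFL genes and FZD10 (dark) and of all genes of the table within 100 kb of them (grey), in genome order. All 4 genes at WNT5A are above 0, and all 12 at the IGFL genes and all 5 at FZD10 are below 0.

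Around FZD10, 5 of 8 genes annotated in the window were present, and each of the 5 was lower. FZD10-DT, the divergent transcript that starts at -0.203 kb from the start of FZD10, had 3.71 ± 3.01 in the libraries labelled shKMT5A and 40.9 ± 2.98 in the shNC libraries. AC026336.1, a processed pseudogene whose counts are uncertain where its parent gene has the same sequence, had 0 in every library labelled shKMT5A, against a mean of 107 ± 14.9 in the shNC libraries, at least 105-fold lower. Agreement of this kind was common in the table: of all ordered pairs of a protein-coding gene and a table gene within 100 kb, 89.4% moved in 1 direction, beside 95.5% (42 of 44) for the members, of which the 3 IGFL genes give 21. EPHB6 and BMP6 were the members that had a neighbour of the other direction, TRPV6 and TXNDC5.

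Among FGF genes, the intracellular FGF homologous factors went both ways. These proteins (FGF11, FGF13, FGF14) are not secreted and bind voltage-gated sodium channels. FGF14 had 101, 163 and 159 normalized counts in the libraries labelled shKMT5A, against 0, 0 and 0 in the shNC libraries. It was detected in every library labelled shKMT5A and in no shNC library, at least 146-fold higher against the floor of 3 counts. Its log2 fold change was 7.11 (SE 0.33; limma, adjusted p = 6.73e-09), the highest of the 32 genes, while the authors' deposited table lists 9.63. Neither value is a bound, since fitted changes of genes at 0 depend on the pseudocount or prior used. Exons of ITGBL1 and AL160153.1 on the opposite strand together cover 33.2% of the exonic bases of FGF14. The sources used here do not give the strand setting of the counting, and values of overlapping genes are uncertain for that reason.

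FGF11 had 20.9, 34.8 and 21.9 normalized counts in the libraries labelled shKMT5A, against 3.81, 7.70 and 8.85 in the shNC libraries, with a log2 fold change of 1.82 (SE 0.37; limma, adjusted p = 7.52e-04). Its value is uncertain, since 75.0% of its exonic bases are shared with annotated transcripts on the same strand. FGF13 moved the other way and had 16.8, 31.7 and 20.9 normalized counts in the libraries labelled shKMT5A, against 271, 257 and 239.8 in the shNC libraries. That is 11.1-fold lower, with a log2 fold change of -3.46 (SE 0.22; limma, adjusted p = 6.14e-08), and 1.49% of its exonic bases are overlapped by the opposite-strand genes FGF13-AS1 and AL031386.1 together.

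The secreted FGF ligands of the table and the carrier FGFBP1 were lower. FGFBP1, which releases FGF proteins from the extracellular matrix, had 157, 175 and 147 normalized counts in the libraries labelled shKMT5A, against 771, 710.3 and 716 in the shNC libraries. It was 4.59-fold lower, with a log2 fold change of -2.19 (SE 0.093; limma, adjusted p = 3.44e-09). FGF22 had 10.5, 10.2 and 10.9 normalized counts in the libraries labelled shKMT5A, against 35.2, 47.2 and 35.4 in the shNC libraries, and the libraries labelled shKMT5A differed from each other by less than 1 normalized count. FGF18, a ligand of cartilage and lung development, had 17.8, 9.21 and 15.9 normalized counts in the libraries labelled shKMT5A, against 32.4, 36.6 and 35.4 in the shNC libraries. Their log2 fold changes were -1.79 (SE 0.26; limma, adjusted p = 5.32e-05) for FGF22 and -1.27 (SE 0.29; limma, adjusted p = 0.00153) for FGF18. Per kilobase, FGFBP1 stood at 118 in the libraries labelled shKMT5A and 539 in the shNC libraries, above all other members named FGF in both groups.

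Of 27 listed feedback genes of FGF and other receptor tyrosine kinases, 8 were in the table, 7 higher and 1 lower, where 57.4% of the whole table was higher. Their median log2 fold change was 1.21, against 1.13 for the table, and the rest of the list was not analysed here. FLRT3, a membrane protein that binds FGF receptors, averaged 36.1 ± 21.8 normalized counts in the libraries labelled shKMT5A and was at 0 in every shNC library, at least 37.4-fold higher. DUSP6, a phosphatase of ERK, had 292 ± 21.5 in the libraries labelled shKMT5A and 85.4 ± 5.45 in the shNC libraries. SPRY2, an inhibitor of receptor tyrosine kinase signalling, had 2959 ± 68.9 in the libraries labelled shKMT5A and 1125 ± 62.7 in the shNC libraries. FOS, an immediate early gene, was the one that fell, with 66.7 ± 4.72 in the libraries labelled shKMT5A and 206 ± 35.9 in the shNC libraries. The EGF family, which signals through the related ERBB receptors, was present with 5 of 18 listed genes, all 5 of them higher (median log2 fold change 1.8). NRG1, the ligand neuregulin 1, had 199.9 ± 33.5 in the libraries labelled shKMT5A and 8.07 ± 2.55 in the shNC libraries, and EREG, the ligand epiregulin, had 5618 ± 463 in the libraries labelled shKMT5A and 656 ± 99.5 in the shNC libraries.

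In the BMP and TGF-beta family, the ligand TGFB2 was higher and the other 3 members were lower. TGFB2 had 2437, 2444 and 2386 normalized counts in the libraries labelled shKMT5A, against 459, 400.4 and 366 in the shNC libraries. The values of the libraries labelled shKMT5A lay within 3% of each other, and the log2 fold change was 2.57 (SE 0.083; limma, adjusted p = 4.29e-10), a 5.93-fold ratio of means. TGFBR3, the co-receptor betaglycan that presents TGFB2 to its signalling receptors, moved the other way and had 209, 270.2 and 234 normalized counts in the libraries labelled shKMT5A, against 1179, 1213 and 1109 in the shNC libraries. It was 4.90-fold lower, with a log2 fold change of -2.30 (SE 0.097; limma, adjusted p = 3.56e-09). An RNA annotated within TGFB2 on the same strand, TGFB2-OT1, shares 26.6% of the exonic bases of TGFB2, so part of its counts is uncertain.

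BMP2, a ligand made by differentiated cells of the colon epithelium, had 121, 156 and 95.4 normalized counts in the libraries labelled shKMT5A, against 466, 499.6 and 516 in the shNC libraries. BMP6, best known as the ligand that regulates hepcidin in the liver, had 53.4, 66.5 and 63.6 normalized counts in the libraries labelled shKMT5A, against 231, 211 and 196 in the shNC libraries. Both were lower in every library labelled shKMT5A than in any shNC library, 3.98-fold and 3.48-fold by the means. Their log2 fold changes were -2.01 (SE 0.16; limma, adjusted p = 3.52e-07) for BMP2 and -1.78 (SE 0.14; limma, adjusted p = 3.49e-07) for BMP6. Per kilobase, TGFB2 was 11 to 17.5 times BMP2 in the libraries labelled shKMT5A and 0.495 to 0.689 times BMP2 in the shNC libraries.

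The promoter window of TGFB2 (RefSeq, GRCh38.p14, chr1:218345086-218345385, plus strand) is shown because TGFB2 and its antisense RNA TGFB2-AS1 were higher together. The RefSeq start of this window lies before the GENCODE 29 start of TGFB2 (218346235). TGFB2-AS1 starts at -0.557 kb from that GENCODE 29 start, and its span (218344196 to 218345678, minus strand) covers the whole window.
TGFB2: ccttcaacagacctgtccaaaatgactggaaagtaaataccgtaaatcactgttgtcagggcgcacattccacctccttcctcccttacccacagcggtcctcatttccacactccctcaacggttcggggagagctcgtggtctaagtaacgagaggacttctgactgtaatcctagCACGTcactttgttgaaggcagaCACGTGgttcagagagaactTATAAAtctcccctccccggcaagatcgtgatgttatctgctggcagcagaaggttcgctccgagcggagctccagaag
Capitals mark the TATA box letters TATAAA 29 bases before the RefSeq start, held by 11.5% of all windows. They also mark the hypoxia motif ACGTG on either strand, held by 21.4% (the longer run CACGTG is this motif on both strands). TGFB2-AS1 had 254 ± 10.2 in the libraries labelled shKMT5A and 44.9 ± 18.5 in the shNC libraries, with a log2 fold change of 2.56 (SE 0.26; limma, adjusted p = 3.10e-06). The 2 genes share no exon.

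Of 63 further BMP and TGF-beta pathway genes 12 were in the table, 5 higher and 7 lower, where 57.4% of the whole table was higher. Their median log2 fold change was -1.10. GDF15, a stress-induced ligand, had 787 ± 12.1 in the libraries labelled shKMT5A and 67.3 ± 14.2 in the shNC libraries, and INHBA, which encodes the activin A subunit, had 204 ± 21.1 in the libraries labelled shKMT5A and 27 ± 0.761 in the shNC libraries. NOG, which encodes the BMP antagonist noggin, had 119 ± 33.6 in the libraries labelled shKMT5A and 32.8 ± 7.40 in the shNC libraries. SMAD7, an inhibitory SMAD, had 522 ± 34.2 in the libraries labelled shKMT5A and 1369 ± 32.3 in the shNC libraries, and ID2, a target of BMP signalling, had 149 ± 9.35 in the libraries labelled shKMT5A and 374 ± 22.2 in the shNC libraries. FST and FSTL3, antagonists of activin, were both lower.

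Ephrin ligands and Eph receptors split within each class. EFNA1, a membrane-anchored A-type ligand, had 822, 815 and 908 normalized counts in the libraries labelled shKMT5A, against 383, 345 and 384 in the shNC libraries. EFNA5, of the same type, had 505, 540.5 and 547 normalized counts in the libraries labelled shKMT5A, against 1671, 1664 and 1647 in the shNC libraries. EFNA1 was higher, with a log2 fold change of 1.19 (SE 0.080; limma, adjusted p = 1.10e-07), and EFNA5 lower, with -1.64 (SE 0.062; limma, adjusted p = 1.58e-09). Per kilobase, EFNA1 was 3.39 to 3.73 times EFNA5 in the libraries labelled shKMT5A and 0.465 to 0.524 times EFNA5 in the shNC libraries. EFNB1, a transmembrane B-type ligand, had 461, 506 and 375 normalized counts in the libraries labelled shKMT5A, against 937, 942 and 955 in the shNC libraries. Its log2 fold change of -1.09 (SE 0.10; limma, adjusted p = 1.70e-06) was the smallest in size of the 32 genes, and it was -0.97 without shKMT5A replicate 3.

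EPHB2, a receptor of crypt cells and a known WNT target, was higher and EPHB6, a receptor without kinase activity, lower. EPHB2 had 484, 521 and 517 normalized counts in the libraries labelled shKMT5A, against 189, 222 and 201 in the shNC libraries, with a log2 fold change of 1.31 (SE 0.092; limma, adjusted p = 1.60e-07). EPHB6 had 254, 254 and 185 normalized counts in the libraries labelled shKMT5A, against 614, 612 and 646 in the shNC libraries, with a log2 fold change of -1.44 (SE 0.12; limma, adjusted p = 7.26e-07). Per kilobase, EPHB2 was 0.809 to 1.19 times EPHB6 in the libraries labelled shKMT5A, against 0.131 to 0.155 times in the shNC libraries. In the libraries labelled shKMT5A these 2 receptors did not keep 1 order, and EPHB6 was the higher in every shNC library.

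EPHA3 and EPHA4, receptors of A-type ephrins, rest on few reads. EPHA3 had 4.19, 1.02 and 7.95 normalized counts in the libraries labelled shKMT5A, against 0, 0 and 0 in the shNC libraries, which is 13 reads against 0. It was at least 4.54-fold higher against the floor of 3 counts, with a log2 fold change of 2.18 (SE 0.49; limma, adjusted p = 0.00135). EPHA4 had 0, 1.02 and 0 normalized counts in the libraries labelled shKMT5A, against 2.86, 5.78 and 9.83 in the shNC libraries, which is 1 read against 19. The ratio of its shNC over its shKMT5A level was 18 (95% counting interval 2.86 to 747), and its log2 fold change was -2.38 (SE 0.46; limma, adjusted p = 4.74e-04). Of 35 listed ephrin partners and other axon guidance genes 8 were in the table, 5 higher and 3 lower, where 57.4% of the whole table was higher. Their median log2 fold change was 1.14. SLIT2, a ligand of ROBO receptors, had 4.75 ± 1.05 in the libraries labelled shKMT5A and 50.3 ± 9.23 in the shNC libraries. RGMA, a ligand of neogenin, had 22.2 ± 6.19 in the libraries labelled shKMT5A and 3.56 ± 2.48 in the shNC libraries, and SDCBP, a PDZ protein that binds B-type ephrins, had 4796 ± 175 in the libraries labelled shKMT5A and 1816 ± 144 in the shNC libraries.

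**Figure D3:**
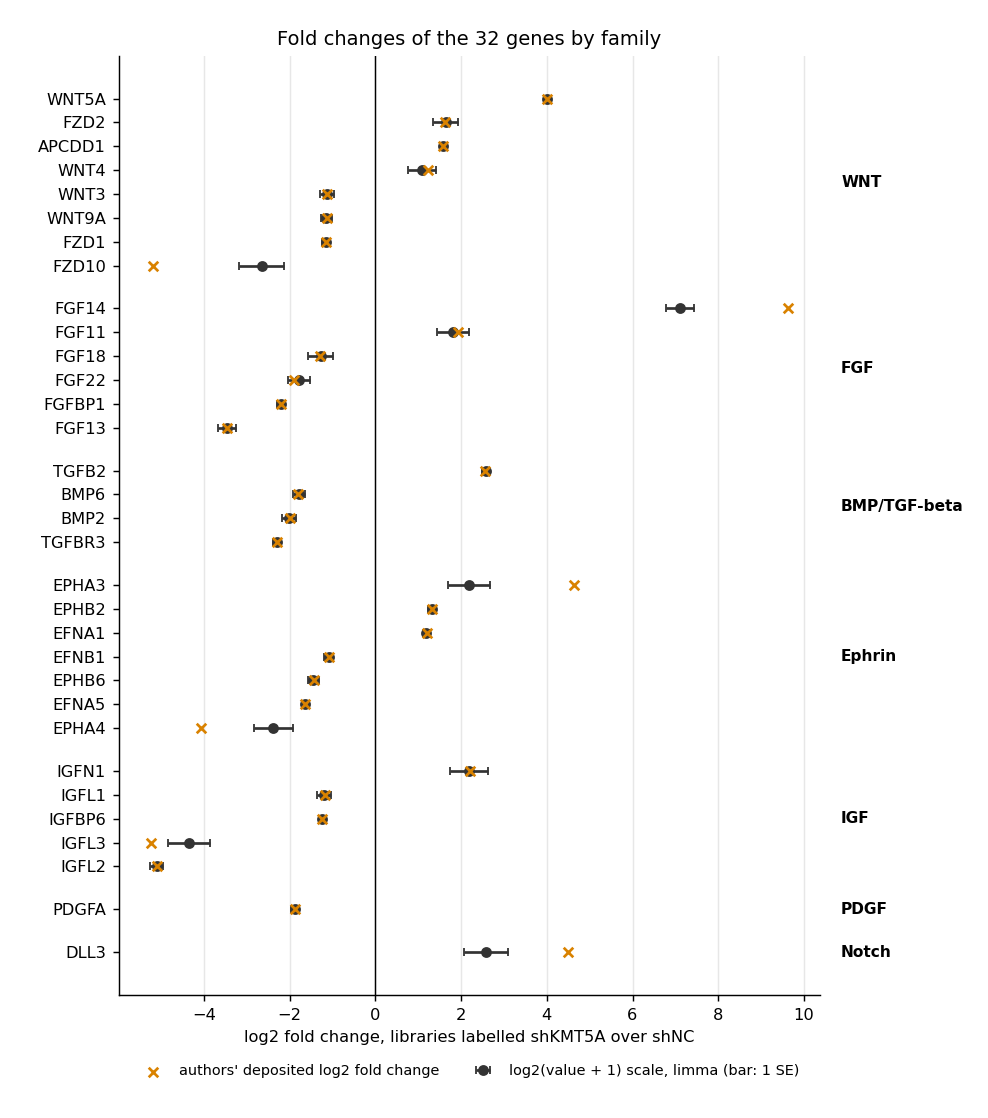
Log2 fold changes (libraries labelled shKMT5A over shNC) of the 32 genes, as fitted here (points with 1 SE) and as given in the authors' deposited table (crosses). The 2 differ by more than 1 for FGF14, FZD10, EPHA3, EPHA4 and DLL3, whose lower group had at most 1 read, and lie close together for abundant genes.

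The IGF-named genes were led by a cluster of IGF-like genes on chromosome 19. IGFL1, IGFL2 and IGFL3 encode small secreted proteins, of which IGFL1 binds the receptor IGFLR1. IGFL2 (ENSG00000204866, chromosome 19, 46143106 to 46161299, plus strand) had 45, 65.5 and 41.7 normalized counts in the libraries labelled shKMT5A, against 1719, 1692 and 1799 in the shNC libraries. It was 34.2-fold lower, with a log2 fold change of -5.10 (SE 0.15; limma, adjusted p = 2.16e-10), the lowest of the 32 genes. IGFL3 (ENSG00000188624, chromosome 19, 46120071 to 46124674, minus strand) had 2.09, 1.02 and 0 normalized counts in the libraries labelled shKMT5A, against 21.9, 48.1 and 46.2 in the shNC libraries. Only 3 reads stood behind its level in the libraries labelled shKMT5A, and the ratio of shNC over shKMT5A was 37.8 (95% counting interval 12.6 to 186), with a log2 fold change of -4.35 (SE 0.49; limma, adjusted p = 7.39e-06). IGFL1 (ENSG00000188293, chromosome 19, 46229752 to 46231243, plus strand) had 155, 194 and 121 normalized counts in the libraries labelled shKMT5A, against 342, 369.6 and 352 in the shNC libraries. It fell less, with a log2 fold change of -1.20 (SE 0.15; limma, adjusted p = 2.03e-05).

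Across the 111 kb from IGFL3 to IGFL1, GENCODE 29 annotates 11 genes, of which these 3 are the protein-coding ones. Of the 11, 7 were present and each was lower. The non-coding AC006262.2, which lies between IGFL2 and IGFL1, had 3.78 ± 2.42 in the libraries labelled shKMT5A and 59.2 ± 2.57 in the shNC libraries, and AC006262.1 had 91.2 ± 1.92 in the libraries labelled shKMT5A and 199 ± 19.6 in the shNC libraries. Within 100 kb of the cluster, HIF3A, which encodes a hypoxia-inducible factor subunit, had 18.2 ± 7.35 in the libraries labelled shKMT5A and 79.1 ± 5.56 in the shNC libraries, and CCDC61 had 129.9 ± 7.57 in the libraries labelled shKMT5A and 510.0 ± 33.1 in the shNC libraries. No stretch of 50 bases in the annotated transcripts of IGFL2 or IGFL3 occurs in a transcript of another gene, and in IGFL1 6.67% do, all in the antisense AC006262.3, which was also lower.

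The 3 promoter windows of the cluster (RefSeq, GRCh38.p14) are shown because the genes are neighbours and were lower together. They lie at chr19:46229492-46229791 (IGFL1, plus strand), chr19:46147988-46148287 (IGFL2, plus strand) and chr19:46124639-46124938 (IGFL3, minus strand). The RefSeq start of IGFL2 lies inside the span that the table gives for the gene.
IGFL1: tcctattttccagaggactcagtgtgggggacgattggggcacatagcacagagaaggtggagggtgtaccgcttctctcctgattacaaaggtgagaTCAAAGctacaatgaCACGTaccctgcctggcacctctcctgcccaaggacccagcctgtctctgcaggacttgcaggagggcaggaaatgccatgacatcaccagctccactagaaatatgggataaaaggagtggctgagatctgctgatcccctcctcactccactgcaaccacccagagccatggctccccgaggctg
IGFL2: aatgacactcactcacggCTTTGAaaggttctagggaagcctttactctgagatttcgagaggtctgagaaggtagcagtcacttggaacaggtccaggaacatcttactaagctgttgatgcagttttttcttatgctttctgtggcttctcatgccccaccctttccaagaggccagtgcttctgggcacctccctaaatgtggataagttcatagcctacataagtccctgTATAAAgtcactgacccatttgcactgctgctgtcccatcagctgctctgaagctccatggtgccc
IGFL3: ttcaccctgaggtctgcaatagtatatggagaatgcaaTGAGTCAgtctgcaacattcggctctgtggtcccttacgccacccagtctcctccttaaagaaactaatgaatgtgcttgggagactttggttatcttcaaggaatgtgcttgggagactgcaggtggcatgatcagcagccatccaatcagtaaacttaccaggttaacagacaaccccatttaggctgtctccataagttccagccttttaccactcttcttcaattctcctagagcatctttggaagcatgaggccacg
IGFL1 and IGFL2 each held the TCF/LEF letters CTTTGA, in IGFL1 as TCAAAG on the other strand, which 12.9% of all windows hold. IGFL2 also held the letters TATAAA 16 bases before its RefSeq start, a motif in 11.5% of all windows. IGFL1 held the hypoxia letters as CACGT, and IGFL3 the AP-1 letters TGAGTCA, a motif in 7.71% of all windows. In pairwise global alignments the windows were identical at 46.0% to 49.1% of columns. Of the 32 genes, 28 had a window in the RefSeq table, and 4 of the 28 held the TCF/LEF letters (FGF18, IGFL1, IGFL2, PDGFA).

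IGFBP6, a secreted protein that binds IGF2, had the highest level per kilobase of the 32 genes in both groups, 1877 in the libraries labelled shKMT5A and 4414 in the shNC libraries. It had 2550.5, 2847 and 2183 normalized counts in the libraries labelled shKMT5A, against 5961, 5736 and 6127 in the shNC libraries. The log2 fold change was -1.24 (SE 0.084; limma, adjusted p = 1.16e-07). IGFN1 shares the name but is a muscle gene with immunoglobulin-like and fibronectin domains and not a growth factor. It had 29.3, 26.6 and 23.8 normalized counts in the libraries labelled shKMT5A, against 7.62, 7.70 and 1.97 in the shNC libraries, with a log2 fold change of 2.18 (SE 0.44; limma, adjusted p = 6.12e-04). Of 22 listed genes of IGF and insulin signalling 4 were present, each of them higher, as was 57.4% of the whole table. Their median log2 fold change was 1.68. STC1, the hormone stanniocalcin 1, averaged 159 ± 44.2 normalized counts in the libraries labelled shKMT5A and was at 0 in every shNC library, at least 165-fold higher. PIK3R1, a regulatory subunit of PI3-kinase, had 2101 ± 115 in the libraries labelled shKMT5A and 468 ± 50.2 in the shNC libraries, and IRS1, a docking protein of the insulin and IGF receptors, had 1531 ± 110.1 in the libraries labelled shKMT5A and 669.8 ± 34.5 in the shNC libraries.

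**Figure D4:**
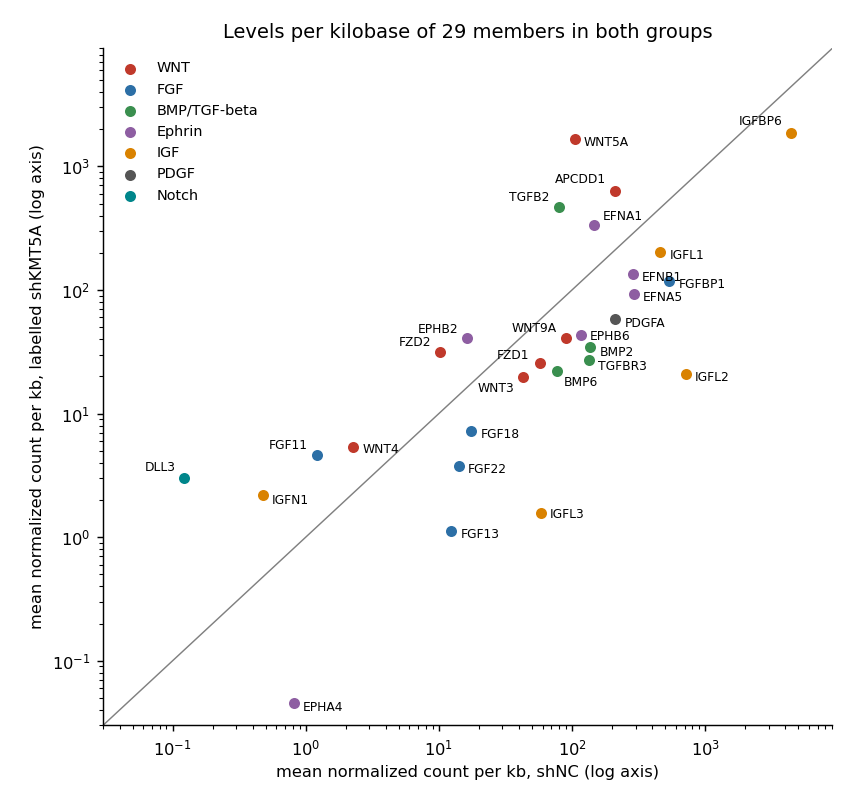
Mean normalized count per kilobase of gene length in the libraries labelled shKMT5A (vertical) and the shNC libraries (horizontal), both on log axes, for the 29 genes detected in both groups, with the line of equality. WNT5A was second in level in the libraries labelled shKMT5A and 13th in the shNC libraries, and IGFL2 was 19th and second.

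PDGFA, a ligand of the receptor PDGFRA, was the only PDGF gene of the table and was lower. It had 241, 257 and 222 normalized counts in the libraries labelled shKMT5A, against 802, 854 and 981 in the shNC libraries, 3.67-fold lower. The log2 fold change was -1.87 (SE 0.096; limma, adjusted p = 1.48e-08). Of 26 listed genes of PDGF, VEGF and related receptors 2 were in the table. SEMA3A, a semaphorin that binds neuropilin 1, was higher with 139.6 ± 21.2 in the libraries labelled shKMT5A and 29.6 ± 5.98 in the shNC libraries, and TEK, the angiopoietin receptor, was lower with 2.04 ± 1.01 in the libraries labelled shKMT5A and 18.7 ± 5.98 in the shNC libraries.

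DLL3, an atypical Notch ligand that stays inside the cell and inhibits signalling, was the only Notch ligand or receptor of the table. It had 4.19, 15.4 and 3.97 normalized counts in the libraries labelled shKMT5A, against 0, 0.963 and 0 in the shNC libraries. It was scarce, with 23 reads in the libraries labelled shKMT5A and 1 in the shNC libraries, a ratio of 24.3 (95% counting interval 3.95 to 1002). The log2 fold change was 2.58 (SE 0.51; limma, adjusted p = 5.43e-04), and shKMT5A replicate 2 held 15 of the 23 reads. Of 40 listed Notch pathway genes 6 were in the table, 2 higher and 4 lower, where 57.4% of the whole table was higher. Their median log2 fold change was -1.12. HES1, a repressor induced by Notch, had 298 ± 20.4 in the libraries labelled shKMT5A and 954 ± 4.11 in the shNC libraries. HEY2, of the same class, moved the other way with 65.4 ± 4.53 in the libraries labelled shKMT5A and 17.4 ± 1.95 in the shNC libraries. LFNG, a glycosyltransferase that modifies Notch receptors, had 39.4 ± 3.74 in the libraries labelled shKMT5A and 103 ± 13.9 in the shNC libraries, and MAML2, a Notch co-activator, was also lower.

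**Figure D5:**
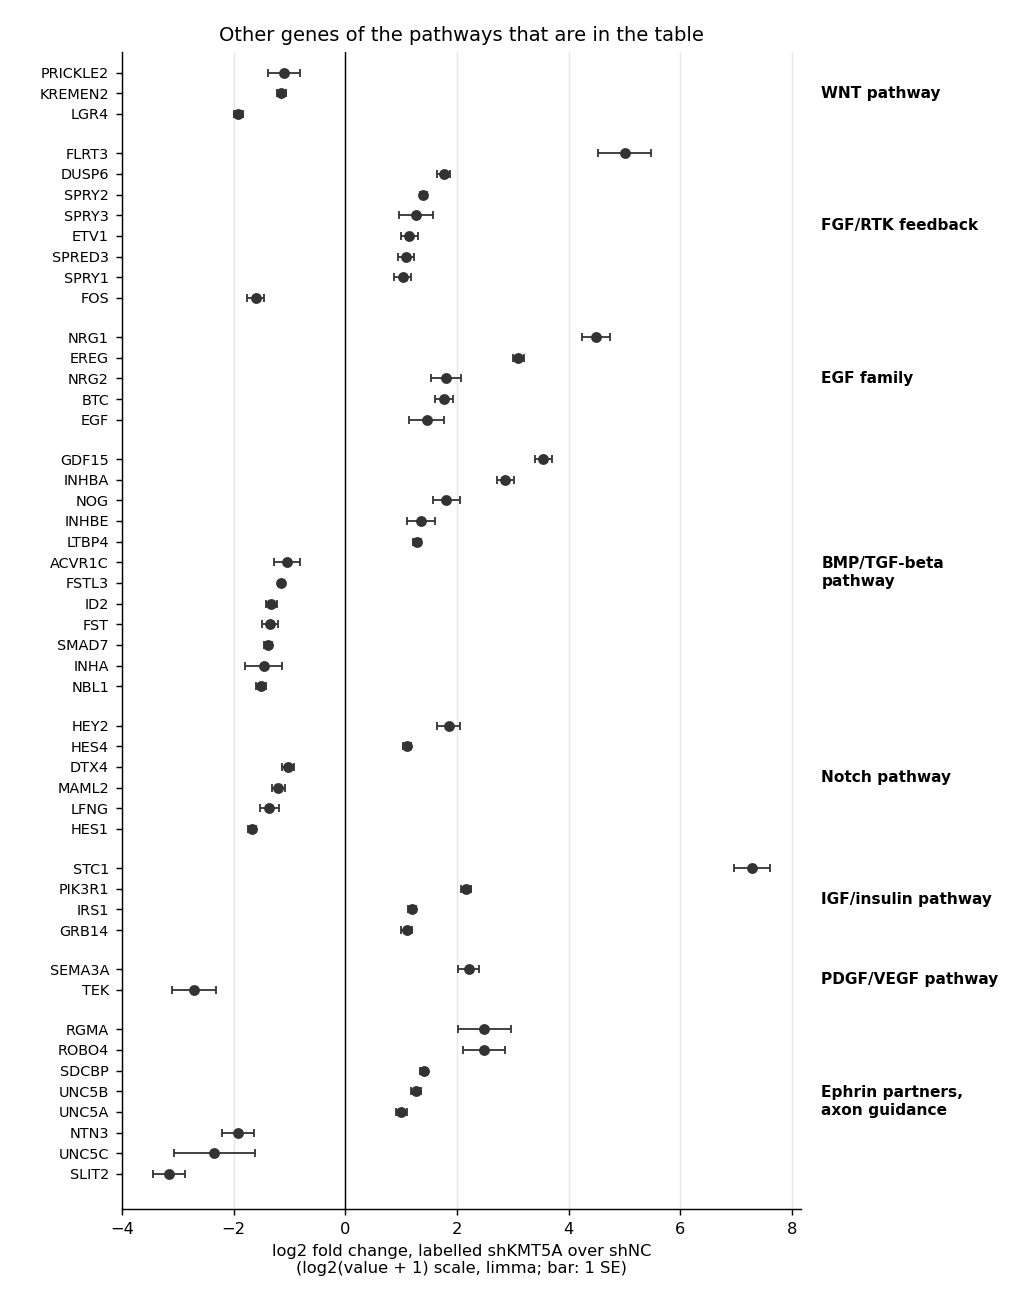
Log2 fold changes (libraries labelled shKMT5A over shNC, bars 1 SE) of the 48 listed pathway genes that are in the table. All 5 EGF family genes and all 4 IGF and insulin genes are above 0, all 3 WNT pathway genes are below 0, and the other lists hold both directions. Of the whole table, 57.4% was higher and 42.6% lower.

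The level order of the members differed between the groups. In the libraries labelled shKMT5A the 5 highest per kilobase were IGFBP6, WNT5A, APCDD1, TGFB2 and EFNA1. In the shNC libraries they were IGFBP6, IGFL2, FGFBP1, IGFL1 and EFNA5. For the 20 members with a mean of at least 100 normalized counts, the coefficient of variation between replicates had a median of 12.1% in the libraries labelled shKMT5A and 4.91% in the shNC libraries. Of those 20, shKMT5A replicate 2 was the highest of its group for 15 and replicate 3 the lowest for 12.

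Some markers of leukocytes, of fibroblasts and endothelium, and of colon epithelium were also in the table. Of the whole table, 57.4% was higher and 42.6% lower. Of 17 leukocyte markers 4 were in the table, 1 higher and 3 lower, with summed levels of 114 to 139 normalized counts in the libraries labelled shKMT5A and 489 to 548 in the shNC libraries, most of it CORO1A. Fibroblast and endothelial markers were represented by 6 of 16 genes (3 higher, 3 lower), and their sums were 95.3 to 121 in the libraries labelled shKMT5A and 172 to 181 in the shNC libraries. The collagen gene COL3A1 and the proteoglycan gene LUM, which held much of these sums, went opposite ways. COL3A1 had 65.7 ± 6.24 in the libraries labelled shKMT5A and 14.2 ± 2.86 in the shNC libraries, and LUM had 0.341 ± 0.591 in the libraries labelled shKMT5A and 111 ± 13 in the shNC libraries. DCN was at 0 in all libraries labelled shKMT5A, CDH5 was at 0 in all shNC libraries, CDH17 of the colon list was also at 0 in all shNC libraries, and PTPRC, PECAM1 and COL1A1 were not analysed here. For markers of colon epithelium, 6 of 16 were present (3 higher, 3 lower), with sums of 45798 to 47267 in the libraries labelled shKMT5A and 144335 to 157172 in the shNC libraries, most of it the keratins KRT8, KRT18 and KRT19. The part of these differences in the values of the growth factor genes was not tested.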

How the data were processed

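Total RNA of 3 libraries labelled shKMT5A and 3 labelled shNC was sequenced, and each column was assigned by its name. Tools listed in the submitters' processing notes are DESeq2 1.20.0, featureCounts 1.5.0-p3, HISAT2 2.0.5, fastp and CASAVA 1.8, and the build is GRCh38 (hg38). Normalized counts, the deposited signal, equal reads divided by 1 factor per library, by the values: 100% of each column's entries are multiples, whole within 0.001, of the value of 1 read, which ranged from 0.952 to 1.05. The authors also deposited their log2 fold changes with p-values and adjusted p-values. The authors' deposited other column used here is the gene length in bases.

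Genes were tested over the whole table with limma 3.58.1 (trend, robust; R 4.3.3) on the log2(value + 1) scale (libraries labelled shKMT5A minus shNC), adjusted by Benjamini-Hochberg over 2885 genes and a threshold of 0.05. The mean of at least 1 normalized count asked of each gene removed none. Fold changes on this scale understate low genes. Intervals and the floor of 3 counts over a group cover counting error only. Alternatives were other pseudocounts, filters and scalings, edgeR 4.0.16 on the reads of 5 libraries, a replicate block and leaving out each library. The count test left out shKMT5A replicate 3 because its value of 1 read, 0.994, was the nearest to 1. Its entries were whole multiples of that value, as in the other libraries. Its reads are used in the read totals, floors and intervals given above. The fits were tested on simulated data with 200 changed genes among otherwise unchanged ones. This table holds only selected genes, so that test covers neither the selection nor the rescalings. Positions of all 32 members matched GENCODE 29. Members, gene lists, motifs and tests were chosen with earlier results of these data known. All members were named, with the 2 genes of largest absolute log2 fold change in each pathway list. Other genes of lists, markers and neighbours were named after their values were seen. Differences between replicates were larger than counting noise for every pair of libraries (chi-square per degree of freedom 2.20 to 9.58).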

Additional observations from a re-analysis of the deposited data

How the results depend on the processing

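The authors had selected all genes as different in these libraries, so stable calls are largely built in. Under every alternative run the 32 members kept their direction where tested, and the counts of 12 higher and 20 lower members changed only with a mean of at least 10 normalized counts (10 and 18 of 28 tested) and with TMM scaling (11 and 20 with limma, 11 and 20 with edgeR), where the WNT4 log2 fold change was not called (0.54 and 0.66, adjusted p = 0.121 with limma and 0.125 with edgeR). Scaling within the table moved the median log2 fold change of all its genes by -0.24 (equal medians), -0.59 (TMM) and -0.62 (TMM, edgeR on reads), so the size of all changes depends on it. The share of calls that were higher was 57.3%, 55.6% and 54.9%. With TMM scaling, by limma and by edgeR, the log2 fold changes of APCDD1, EFNA1, EPHB2 and WNT4 were under 1. That of FZD2 was also under 1 with TMM and edgeR, and those of EFNA1 and WNT4 with equal medians. These scalings used only genes that had been selected as different, so they cannot judge the authors' own scaling. Same-numbered libraries showed no shared pattern (correlations of their deviations from the group means -0.036, -0.031 and 0.008), which cannot exclude that they were handled together. With the replicate block the table had 1655 higher and 1228 lower genes and the members 12 and 20, as without it. With a mean of at least 10, the higher genes were 0 of 2 leukocyte markers tested (1 of 4 otherwise) and 1 of 4 colon markers (3 of 6 otherwise), since fewer genes were tested. That filter also left 2 higher and 2 lower of 4 fibroblast and endothelial markers (3 and 3 of 6 otherwise) and 2 lower leukocyte markers (3 otherwise). TMM scaling, with limma and with edgeR, left 6 higher FGF feedback genes (7 otherwise) and 2 higher fibroblast and endothelial markers, and with edgeR 2 higher colon markers. Ephrin partners and axon guidance genes had 2 lower genes (3 otherwise) with a pseudocount of 0.1 and without shNC replicate 2. Leaving out 1 library gave 12 and 20 members throughout, 1645 to 1653 higher and 1225 to 1228 lower genes in the table. It moved the fold of FZD10 by 1.53 times (without shNC replicate 3) and that of every other member by less than 1.5 times. Genes at few reads (FZD10, EPHA3, EPHA4, DLL3, IGFL3) are limited by depth.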
